A study of Mus musculus with 2 samples.

Results

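Genes of cholesterol synthesis and its control, 8 in number, were followed in microglia sorted from the brains of sham-operated mice. They were picked by name, as rows of both count files whose Ensembl identifier carries the symbol Hmgcs1, Idi1, Fdft1, Sqle, Cyp51, Srebf1, Srebf2 or Insig1, and all 8 were found among the 53801 genes listed in each file. The mice were male Cx3cr1(CreER/wt) on a C57BL/6 background, labelled as 8 to 10 weeks old, while the study's methods give an older range and both sexes. In all of them 1 Cx3cr1 allele carried a tamoxifen-inducible Cre recombinase. This Cre is active in microglia and in other Cx3cr1-expressing macrophages. All of the mice received tamoxifen at 75 mg/kg per day for 4 days, starting 14 days before surgery. Cells of the left hemisphere were taken 3 days after sham surgery and gated as CD11c-Ly6G-CD11b+CD45low, and each of the 2 libraries came from 1 mouse. Sham surgery is named in the sample titles, although the field for treatment says none. Microglia of the MCAO arm (middle cerebral artery occlusion) were not analysed here, so all values describe 1 group of n = 2, and no test between conditions was possible.

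Cells build cholesterol from acetyl-CoA through mevalonate, isoprenoid units, squalene and lanosterol. The pathway is switched on by SREBP transcription factors, which sit in the membrane of the endoplasmic reticulum bound to the escort protein SCAP. When membrane sterol is low, SCAP carries SREBP to the Golgi, where a pair of proteases frees its DNA-binding part, and when sterol is high, INSIG proteins hold the complex back. SREBP-2, the product of Srebf2, mainly drives genes of sterol synthesis and uptake, and SREBP-1, the product of Srebf1, mainly drives genes of fatty acid synthesis. In the adult brain, sterol made by astrocytes is passed to other cells in lipoproteins, and microglia also take up and recycle sterol from myelin debris.

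SREBPs bind sterol regulatory elements near gene starts, often beside boxes for the factors NF-Y and SP1. Promoter windows of 300 bases, from 250 before to 50 after a transcript start (RefSeq, GRCm38.p6), were matched for 6 of the 8 genes, Hmgcs1, Idi1, Cyp51, Insig1, Srebf2 and Srebf1, the last with 3 starts, which gave 8 windows. The windows were searched on both strands for the sterol element core TCACNCCAC, the NF-Y box CCAAT, the SP1 box GGGCGG and the E-box CACGTG. The stretches below are shown because they hold the only exact match to the sterol element core among these windows (Hmgcs1), the only E-box (Insig1) and a near match in the gene of a SREBP itself (Srebf2). Each ends before the first annotated base of its gene, and capitals mark matches to the 3 short motifs and to the sterol element core with at most 1 mismatch.
Hmgcs1, chr13:119690101-119690350, plus strand: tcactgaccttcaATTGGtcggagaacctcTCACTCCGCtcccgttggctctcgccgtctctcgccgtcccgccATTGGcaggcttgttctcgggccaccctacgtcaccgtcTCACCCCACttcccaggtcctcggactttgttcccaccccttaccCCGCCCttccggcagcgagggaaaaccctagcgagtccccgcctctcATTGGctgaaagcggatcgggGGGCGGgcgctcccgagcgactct
Insig1, chr5:28071162-28071362, plus strand: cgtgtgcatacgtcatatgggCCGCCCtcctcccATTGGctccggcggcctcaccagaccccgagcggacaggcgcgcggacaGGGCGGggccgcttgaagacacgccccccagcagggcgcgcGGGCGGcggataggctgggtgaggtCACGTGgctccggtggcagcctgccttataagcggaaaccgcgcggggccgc
Srebf2, chr15:82147019-82147180, plus strand: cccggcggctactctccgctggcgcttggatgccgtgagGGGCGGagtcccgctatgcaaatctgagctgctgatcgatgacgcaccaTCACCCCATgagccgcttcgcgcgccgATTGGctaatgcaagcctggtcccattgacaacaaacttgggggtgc

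Counted from the transcript start, with the base before it as -1, the exact sterol element core of Hmgcs1 lay at -137 to -129. This core occurred in 1.24% of all 32851 promoter windows, and its form with C in the open position, which Hmgcs1 carries, in 0.551%. With 1 mismatch allowed, a setting added after the data were seen, 4 of the 8 windows matched, against 24.2% of all windows. They belong to Hmgcs1, Insig1, Cyp51 and Srebf2. The near match of Srebf2 lay at -162 to -154 and that of Cyp51 at -108 to -100. That of Insig1 lay at -9 to -1 on the minus strand, beyond the end of the stretch shown above. An NF-Y box was present in 7 of the 8 windows, against 37.4% of all windows, and the whole window of Hmgcs1 carried 4. An SP1 box was also present in 7 of the 8 windows, against 35.7% of all windows. The E-box of Insig1, at -101 to -96, was the only one in these windows, against 7.15% of all windows. These matches describe letters in a window and not binding.

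**Figure D1:**
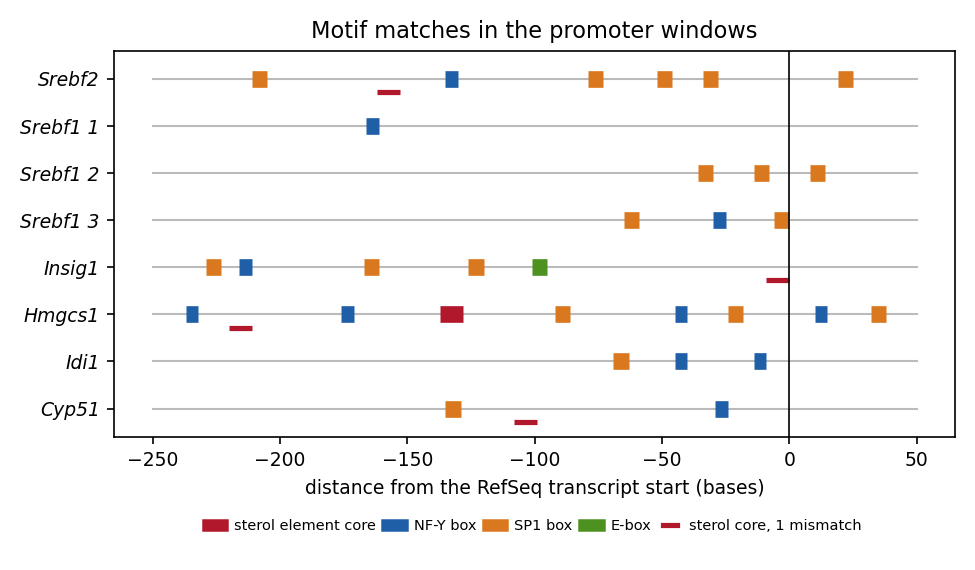
Motif matches by distance from the RefSeq transcript start in bases, for 8 promoter windows of 6 genes (Srebf1 has 3 starts, numbered 1 to 3). Thick marks are exact matches, thin red marks lie under the line and are matches to the sterol element core with 1 mismatch. Hmgcs1 holds the only exact core, at -137 to -129.

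The unit of level was counts per 1000000 of a library's total (CPM). Totals were 23381026 counts for sham library 1 and 41142609 for sham library 2. A gene at 0 could still have up to 3 counts, which corresponds to 0.128 CPM in the first library and 0.0729 CPM in the second. Intervals and limits cover counting error only, and they treat each read as an independent molecule. Amplified reads without molecular identifiers are not independent, so the intervals can be too narrow. A gene was termed counted if each library held at least 10 of its counts, which applied to 13445 genes and to all 8 genes described here. The common biological coefficient of variation of the libraries, from edgeR, was 0.479. Microglia markers (10 genes, all above 0, led by Csf1r with 14910 and 5934 CPM) took 5.12% and 4.72% of the counts. Markers of immature neutrophils (10 genes, all above 0) took 0.186% and 3.11%, led by Ngp with 749 and 16031 CPM, and markers of mature neutrophils (9 genes, all above 0) took 0.375% and 3.45%, led by S100a8 with 1396 and 14266 CPM, although the gate left out Ly6G+ cells. Neutrophil markers thus took a larger share of library 2, and their part in the differences between the libraries was not tested. The 10 astrocyte markers, led by Slc1a3, summed to 235 and 194 CPM, and the 10 oligodendrocyte markers, led by Cnp, to 236 and 243 CPM. Among the latter, Ugt8a and Olig2 were at 0 in library 1 and Cldn11 in library 2. The 6 markers of choroid plexus, led by Ttr, summed to 24.5 and 370.2 CPM, and the 6 of border macrophages, led by F13a1, to 642 and 281 CPM. The 8 neuron markers, led by Snap25 and with Gad1 at 0 in library 1, summed to 3.64 and 5.74 CPM, and the 6 endothelial markers, led by Pecam1 and with Tek at 0 in both, to 23.1 and 16.9 CPM. In bulk samples, fewer cells of a type and less RNA per cell cannot be told apart.

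The genes of the SREBP transcription factors had the highest mean levels of the 8, although in library 2 Srebf1 was below Fdft1 and Cyp51 both in CPM and in CPM per kb. Srebf2 (ENSMUSG00000022463, chromosome 15 of GRCm38, 82147181 to 82205379, plus strand) was covered by 1894 counts in library 1 and by 1996 in library 2, or 81.0 and 48.5 CPM (mean 64.8 ± 23.0, SD, n = 2). Srebf1 (ENSMUSG00000020538, chromosome 11, 60199089 to 60222581, minus strand) had 1852 and 843 counts, or 79.2 and 20.5 CPM (49.8 ± 41.5, SD, n = 2). In library 1 both genes stood at nearly the same CPM, whereas in library 2 Srebf1 was below Srebf2. Per kb of exon, the level of Srebf1 was 1.25 times that of Srebf2 in library 1 and 0.539 times in library 2. The order of the factors thus differed between the libraries. Starts of both the SREBP-1a and the SREBP-1c form belong to Srebf1, and counts per gene do not separate them. Srebf2 also hosts Mir33, a microRNA known for repressing sterol efflux genes, inside an intron (chromosome 15, 82198122 to 82198190). The Mir33 row had 0 counts in both libraries, as had Mir6921 and Mir6922 within Srebf1, and a library of polyadenylated RNA does not measure mature microRNAs.

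Insig1, the sterol-regulated retention protein and itself a classic SREBP target, was at an intermediate level. Insig1 (ENSMUSG00000045294, chromosome 5, 28071363 to 28078662, plus strand) had 550 and 373 counts, or 23.5 and 9.07 CPM (16.3 ± 10.2, SD, n = 2). Library 1 was the higher one. Its paralog Insig2, which also retains SCAP and is less tied to sterol supply, had 58.2 and 55.9 CPM (57.0 ± 1.67, SD, n = 2). Per kb of exon, Insig1 stood at 0.454 times the level of Insig2 in library 1 and at 0.182 times in library 2.

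The mevalonate enzymes were represented by Hmgcs1 and Idi1. Hmgcs1, which makes HMG-CoA in the cytosol (ENSMUSG00000093930, chromosome 13, 119690379 to 119708260, plus strand), had 510 and 531 counts, or 21.8 and 12.9 CPM (17.4 ± 6.30, SD, n = 2). Idi1, which isomerises isopentenyl diphosphate (ENSMUSG00000058258, chromosome 13, 8885501 to 8892451, plus strand), was the lowest of the 8 genes, with 50 and 133 counts, or 2.14 and 3.23 CPM (2.69 ± 0.774, SD, n = 2). The neighbouring paralog Idi2 had 0 counts in both libraries.

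Fdft1, Sqle and Cyp51 act at the entry to the sterol branch. Fdft1, squalene synthase (ENSMUSG00000021273, chromosome 14, 63145150 to 63179578, minus strand), had 460 and 1012 counts, or 19.7 and 24.6 CPM (22.1 ± 3.48, SD, n = 2). Sqle, squalene epoxidase (ENSMUSG00000022351, chromosome 15, 59315077 to 59331192, plus strand), had 285 and 248 counts, or 12.2 and 6.03 CPM (9.11 ± 4.36, SD, n = 2). Cyp51, lanosterol 14-alpha-demethylase (ENSMUSG00000001467, chromosome 5, 4081145 to 4104746, minus strand), had 520 and 857 counts, or 22.2 and 20.8 CPM (21.5 ± 0.997, SD, n = 2). Cyp51 thus differed least between the libraries in CPM, Fdft1 was somewhat higher in library 2, and Sqle was higher in library 1. Per kb of exon, Sqle reached 0.472 times the level of Fdft1 in library 1 and 0.187 times in library 2.

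**Figure D2:**
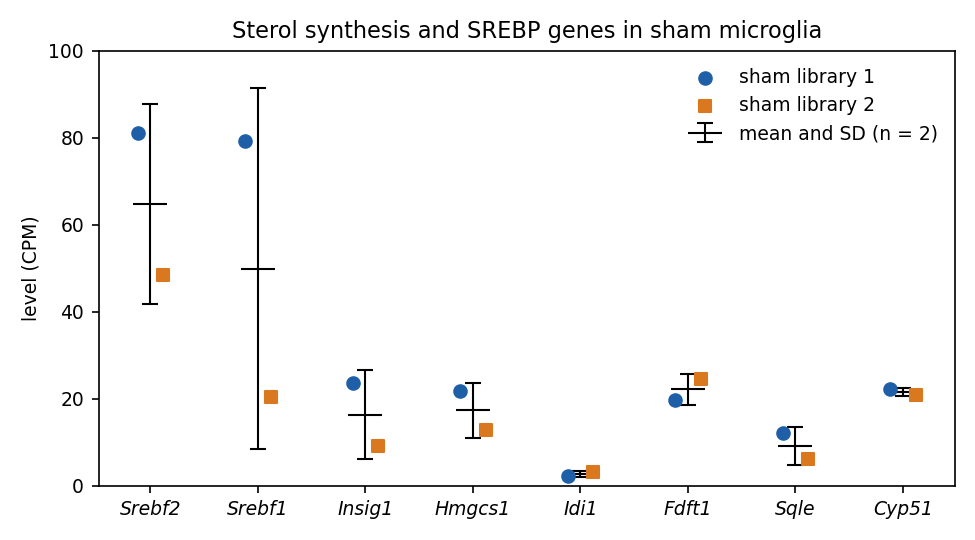
Level in CPM (vertical axis, starting at 0) of the 8 genes in sham library 1 (circles) and sham library 2 (squares), with the mean and SD of both as black bars. Srebf1 spans 79.2 to 20.5 CPM, while Cyp51 spans 22.2 to 20.8 CPM.

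Some of these counts share exonic sequence with neighbours, and whether the counting used the strand of reads is not given in the sources used here. The last 774 exonic bases of Fdft1 lie over the end of Ctsb on the other strand (chromosome 14, 63145150 to 63145923). Ctsb, a cathepsin gene, had 5870 and 4207 CPM, far above Fdft1, so the level of Fdft1 is uncertain. Cyp51 shares 166 exonic bases with Akap9 (59.0 and 55.7 CPM), and Srebf1 shares 109 with Rai1 (26.1 and 7.46 CPM), both on opposite strands, so their levels carry the same uncertainty to a degree that was not tested. Gm48342 shares 557 exonic bases with Hmgcs1, and Gm48574 shares 323 with Idi1, both on opposite strands. These partners had at most 2 counts. The levels of Hmgcs1 and Idi1 still carry the same uncertainty, to a degree that was not tested. Gm49502, which lies in an intron of Srebf2 on the same strand, had 18 and 8 counts. Sqle and Insig1 overlapped no listed gene.

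Levels were compared between genes per kb of exon, using the union of all exons annotated in GENCODE M21. By the mean of the libraries, the order was Srebf2 with 9.01 CPM per kb, Srebf1 with 8.85, Insig1 with 5.27, Fdft1 with 5.24, Cyp51 with 4.88, Hmgcs1 with 3.78, Sqle with 1.64 and Idi1 with 0.766. The ranges of neighbours overlapped from Srebf2 to Hmgcs1, so no neighbours among these 6 were separated beyond the spread of the libraries. Within each library, Srebf1 was above Insig1 and Cyp51 above Hmgcs1. The order within the other neighbouring pairs of these 6 differed between the libraries. Sqle lay below Hmgcs1 and Idi1 below Sqle in both libraries, with no overlap of their ranges. Among counted genes, the level per kb of Srebf2 was at percentile 71.3 in library 1 and 65.6 in library 2, and that of Idi1 at 15.2 and 27.3. Srebf1 stood at percentile 75.7 in library 1 and at 53.7 in library 2. The counted genes closest to Srebf2 in CPM over these libraries were Ripk1 (80.2 and 49.7), Rps15a (82.9 and 47.7) and Arid3a (78.3 and 49.0), at Euclidean distances of 0.0383, 0.0411 and 0.0505 on the log2 scale.

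How far the libraries differed was asked with the log2 ratio of CPM, library 2 over library 1, which describes the spread within the group. Each library came from 1 mouse, so differences between mice and between library preparations cannot be told apart. The median ratio was -0.75 over the 8 genes and -0.26 over all 13445 counted genes, and 5 of the 8 genes lay below the latter. Srebf1 had the largest difference, -1.95 (95% exact interval -2.07 to -1.83), or 3.87-fold lower in library 2, at percentile 7.46 of all ratios. Insig1 had -1.38 (-1.57 to -1.18), Sqle -1.02 (-1.27 to -0.77), Hmgcs1 -0.76 (-0.94 to -0.58) and Srebf2 -0.74 (-0.83 to -0.65). Cyp51 had -0.09 (-0.25 to 0.07), the only interval that held 0, and its sign turned with TMM and DESeq2 scaling. Fdft1 had 0.32 (0.16 to 0.48) and Idi1 0.60 (0.12 to 1.10), so these enzymes were higher in library 2.

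Srebf1, Insig1 and Sqle, 3 of the 8 genes or 37.5%, were more than 2-fold lower in library 2, where 25.9% of all counted genes were. None of the 8 was more than 2-fold higher, against 5.74% of all. In either direction 31.7% of the counted genes passed 2-fold, so the share among these 8 genes was near the background. Of the counted genes past 2-fold, 81.9% were lower in library 2, a share that came to 70.3% under TMM scaling and to 67.2% under size factors of DESeq2. The median ratio of all counted genes moved to -0.03 with TMM and 0.01 with DESeq2, and in both cases Sqle came within 2-fold while Srebf1 and Insig1 stayed past it. Without the genes of both neutrophil lists in the totals, the ratios were -1.86 for Srebf1, -1.29 for Insig1 and -0.93 for Sqle.

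**Figure D3:**
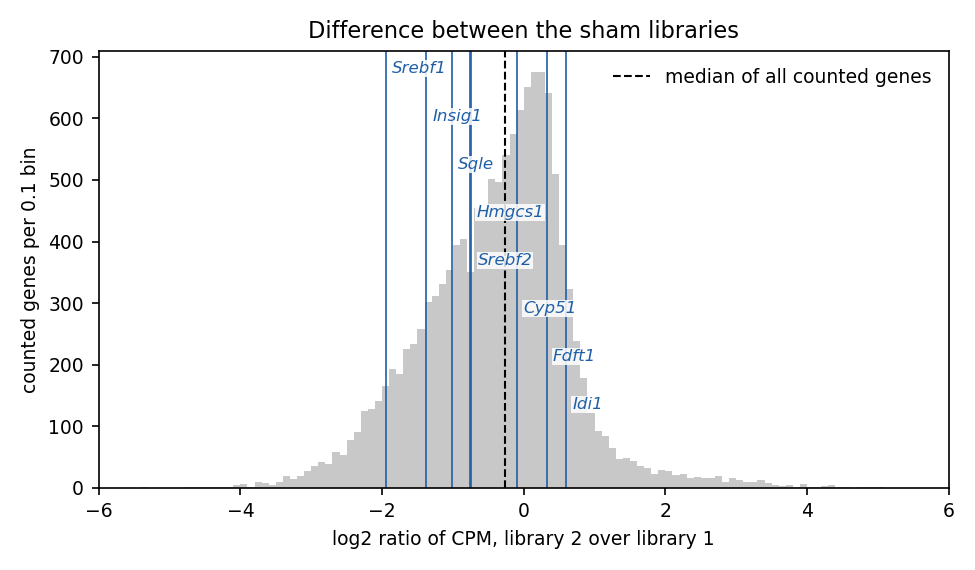
Histogram of the log2 ratio of CPM, library 2 over library 1, for 13445 counted genes in bins of 0.1 (ratios beyond 6 in size are drawn at the edge). Blue lines mark the 8 genes and the dashed line the median of all counted genes, -0.26. Srebf1 at -1.95 lies farthest left and Idi1 at 0.60 farthest right of the 8.

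Transcript length and GC content moved with the ratio across all counted genes. With genes cut into 10 equal bins of exon length, the median ratio ran from 0.13 in the second shortest (1274 to 2026 bases) to -0.90 in the longest. In 10 bins of GC content it ran from -0.10 in the second lowest to -0.64 in the highest (57.3% and above). Srebf1 (58.4% GC, 5634 exonic bases) and Srebf2 (57.9% GC, 7184 bases) are both in the highest bin of GC content. Genes in the same bins of GC content and length had a median ratio of -1.47 for Srebf1 (111 genes) and -1.90 for Srebf2 (67 genes). Relative to these, Srebf1 had -0.48 and Srebf2 had 1.16, so the sign of the Srebf2 difference turned. Insig1 (48.2% GC, 3093 bases) stayed at -1.37, Hmgcs1 at -0.71 and Sqle at -0.60, while Fdft1 had 0.77, Idi1 0.35 and Cyp51 0.04. With this adjustment Insig1 was the only one of the 8 more than 2-fold lower, against 14.5% of 13439 genes, and Srebf2 the only one more than 2-fold higher, against 9.49%. The median of the 8 adjusted ratios was -0.22.

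**Figure D4:**
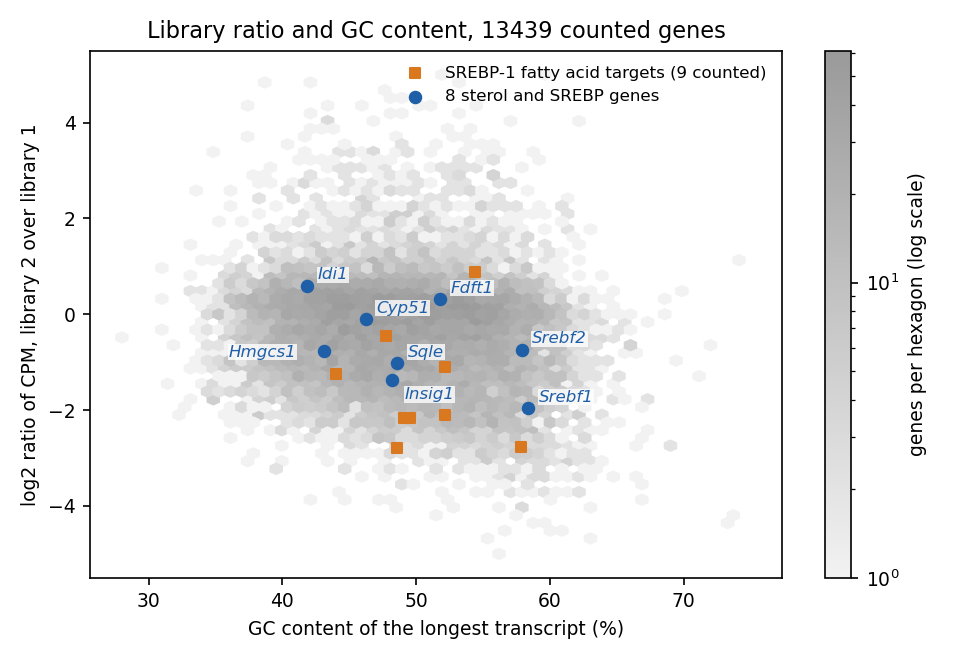
Log2 ratio of CPM, library 2 over library 1, against GC content in percent of the longest transcript. Grey hexagons hold 13439 counted genes (shade on a log scale, ratios beyond 5 drawn at the edge), blue circles the 8 genes and orange squares the 9 counted SREBP-1 fatty acid targets. Srebf1 and Srebf2 lie at the GC-rich side, at 58.4% and 57.9%.

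Other genes of the pathway were read in 7 fixed lists. The 7 further enzymes of the mevalonate and isoprenoid steps were all counted. Their median ratio was 0.06 (-0.12 relative to genes of like GC content and length). Of these enzymes, 1 was more than 2-fold lower in library 2 (14.3%, against 25.9% of all counted genes). Ggps1, which makes geranylgeranyl diphosphate, was the highest of the list with 43.4 and 37.4 CPM. Fdps, the enzyme just before Fdft1, had only 19 counts in each library. Near-identical processed copies lie elsewhere in the mouse genome, and reads can be lost or split between such copies in counting. Whether this applied to Fdps here was not tested.

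The 10 further enzymes after squalene were all counted, with a median ratio of 0.05. Of these, 1 was more than 2-fold lower in library 2 (10%, against 25.9% of all counted genes). It was Dhcr7, which makes cholesterol in the last step of one branch, with 35.6 and 10.9 CPM (log2 ratio -1.71). Relative to genes of like GC content and length, its ratio was -1.05, still past 2-fold. Ebp, a sterol isomerase, was the highest with 121 and 127 CPM, and per kb of exon it exceeded each of the 8 genes in both libraries.

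Of the 4 genes that escort, retain or cut SREBPs, Scap and Mbtps1 were more than 2-fold lower in library 2, against 25.9% of all counted genes. Scap, the escort, had 79.2 and 12.9 CPM (log2 ratio -2.62), and its level per kb was 0.943 times that of Srebf2 in library 1 and 0.256 times in library 2. Relative to genes of like GC content and length, the ratio was -0.72 for Scap and -0.64 for Mbtps1, so neither was past 2-fold. Mbtps1, the first protease, had 120.1 and 39.7 CPM, and Mbtps2, the second, had 11.3 and 9.04 CPM. The list of ubiquitin ligase genes linked to sterol control held 4 genes, all counted, with a median ratio of -0.87. Of these, 2 were more than 2-fold lower in library 2 (50%, against 25.9% of all counted genes). Relative to genes of like GC content and length, the median was -0.82, and 2 were more than 2-fold lower, against 14.5% of all genes so adjusted. Mylip, a sterol-induced ligase gene named after its values were seen, had 242 and 107 CPM. It was more than 2-fold lower in library 2 before and after the adjustment (log2 ratios of -1.18 and -1.25). Rnf139, another ligase of the endoplasmic reticulum, was the lowest of that list with 42.3 and 28.8 CPM.

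For uptake and storage, 3 of 4 genes were counted, with a median ratio of -0.41 (0.30 relative to genes of like GC content and length). Of these 3, 1 was more than 2-fold lower in library 2 (33.3%, against 25.9% of all counted genes). Soat1, which esterifies cholesterol, was the highest of the list with 117 and 88.0 CPM.

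SREBP-1 fatty acid targets had the lowest median ratio of the lists. Of 11 genes 9 were counted, with a median of -2.11. Of these 9, 7 were more than 2-fold lower in library 2 (77.8%, against 25.9% of all counted genes). That count was 6 under TMM scaling, against 20% of all counted genes, and 5 under size factors of DESeq2, against 19.0%. Acly, which makes cytosolic acetyl-CoA, was the highest with 249.99 and 57.8 CPM, and Gpam, an acyltransferase of glycerolipid synthesis, had the largest ratio at -2.79 (24.2 and 3.50 CPM). Fads2 and Acss2, named after their values were seen, were the counted genes within 2-fold, with ratios of 0.88 and -0.46. Me1, the lowest by mean CPM though by a narrow gap, had 2 and 15 counts. Relative to genes of like GC content and length, the median of the 9 was -0.998, and 4 were more than 2-fold lower, against 14.5% of all genes so adjusted. Srebf1 itself had -1.95 before and -0.48 after this adjustment.

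Among 6 genes of oxysterol synthesis and sensing, 5 were counted, with a median ratio near 0 (-0.0041) that turned positive with TMM and DESeq2 scaling. Nr1h2, which encodes the oxysterol receptor LXR-beta, was the highest with 71.9 and 69.7 CPM. Ch25h, which makes 25-hydroxycholesterol, a signal that retains SREBPs through INSIG, had 31 and 115 counts, or 1.33 and 2.80 CPM. Its log2 ratio was 1.08, past 2-fold, and 0.76, within 2-fold, relative to genes of like GC content and length. Cyp7b1, an oxysterol hydroxylase, had 0 and 12 counts.

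**Figure D5:**
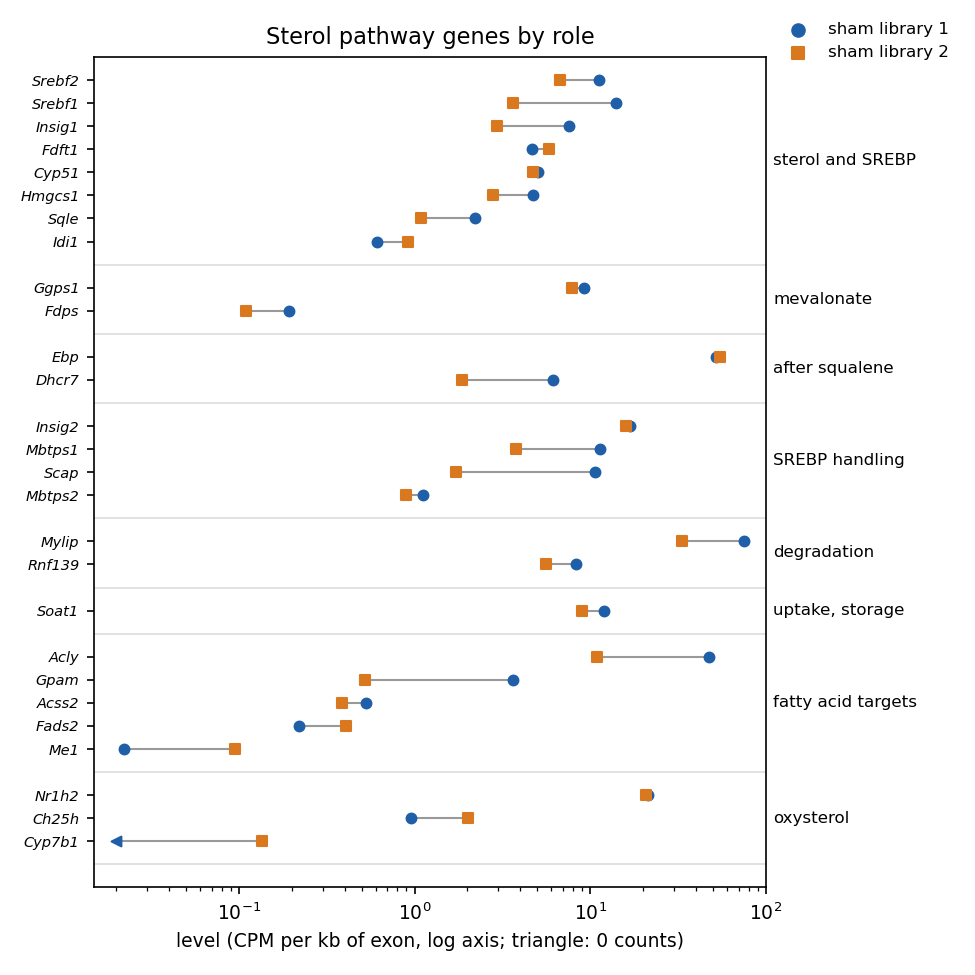
Level in CPM per kb of exon (log axis) of the pathway genes named in the text, grouped by role, in sham library 1 (circles) and sham library 2 (squares), joined by a line. The triangle at the left edge marks 0 counts of Cyp7b1 in library 1. Acly and Gpam sit lower in library 2, while Ebp, with 121 and 127 CPM before division by length, nearly coincides.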

How the data were processed

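RNA-seq counts of 2 sham libraries of sorted microglia were used. The authors made cDNA with the SMART-Seq HT Kit, built Nextera XT libraries, checked reads with FastQC, and used HISAT2 for mapping to GRCm38 and HTSeq for counting. The deposited counts are raw, 1 row for each Ensembl gene. Tool versions, strand setting and annotation release are not given in the sources used here. Symbols were matched for 53620 of 53801 identifiers, and gene starts, deposited from 0, are given from 1. CPM was the count divided by the file total, times 1000000. Samples were grouped by title. With 1 group, no test between conditions was made. edgeR 4.0.16 (TMM, its filter on low counts, intercept only) gave the spread and DESeq2 1.42.0 an alternative, in R 4.3.3, and the steps were tested on simulated data. Intervals of ratios are 95% exact (Clopper-Pearson). GC content is that of the longest transcript and length the union of exons in GENCODE M21. The adjustment subtracted the median ratio of counted genes in the same of 10 bins each, or of the GC bin where fewer than 20 genes shared both. Python 3.11.15, pandas 2.3.3, scipy 1.17.1 and matplotlib 3.10.9 were used. Named genes were the 8, of each list the highest, the lowest and the one with the largest ratio among those counted, overlapping genes and the 3 nearest to the gene of highest CPM. The genes and lists were chosen with earlier results of these data known. Having 2 libraries limits every mean. Some genes of the lists enter the list counts and medians but are not reported here by name.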

Additional observations from a re-analysis of the deposited data

How the results depend on the processing

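No paired analysis was possible because both libraries belong to 1 group. Leaving out a library moved no mean level by more than 1 SD, which holds by construction with 2 libraries, and gave 14063 to 15118 counted genes in place of 13445. The number of genes past 2-fold, 4257, became 7302 with at least 1 count in both libraries as the filter and 6837 with a limit of 1.5-fold, which 6 of the 8 genes passed in place of 3. The coefficient of variation was 0.475 to 0.550. The ratio of Cyp51 reversed to 0.14 with TMM, to 0.18 with DESeq2 size factors and to 0.038 with the GC and length adjustment, and that of Srebf2 reversed to 1.16 with the adjustment. The median of the oxysterol genes reversed to 0.23 with TMM, 0.27 with DESeq2, 0.086 without the neutrophil lists and 0.25 with the adjustment. The adjustment also reversed the medians of the mevalonate list, to -0.12, and of the uptake and storage list, to 0.30, and moved that of the fatty acid targets to -0.998. The sterol element core matched 4 genes with 1 mismatch in place of 1. For single genes and lists, the adjustment was chosen after seeing the data, except for the median of the 8 genes. The cause of these changes was not tested. Leaving mitochondrial genes out of the totals turned the sign of no ratio of the 8 genes and of no list median, and gene lengths from the longest transcript kept the order of all 8 genes. Depth limits genes with few counts, such as Idi1 and Fdps.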
